A study of Homo sapiens with 12 samples.

Results

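CALB1 and S100B, the genes of the calcium-binding proteins calbindin and S100B, were described across the 4 groups of an RNA-seq series on A375, an established human melanoma cell line with an activating BRAF mutation. They are 2 of the 8579 genes in the count table, and both belong to the EF-hand superfamily. They were chosen by their log2 changes in these groups, which run in opposite directions, so those values are given as a description, with no p-value. The cells had been treated for 72 hours with 2.5 µM SEL201, an inhibitor of the kinases MNK1 and MNK2, with 50 nM OTX015, an inhibitor of BET bromodomain proteins, with both agents at these doses (COMBO), or with neither (UNTREATED, labelled as DMSO, the drug solvent). Each group has 3 libraries, numbered 1 to 3. All came from 1 cell line. Whether a group's libraries are separate cultures is not stated in the labels, and the p-values below then reflect library-to-library spread that may be technical.

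EF-hand proteins bind calcium ions in short loops between helices. Calbindin is a cytosolic calcium buffer, best known in neurons and in the calcium-transporting cells of the kidney, where vitamin D raises it. S100B is a small dimeric sensor that changes shape on binding calcium and then binds other proteins. It is abundant in glia and in the melanocyte lineage, and is used as a tissue and serum marker of melanoma.

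CALB1 was highest without either agent, at 15.9, 27.2 and 41.9 CPM (counts scaled to a common library total, with TMM factors) in UNTREATED libraries 1, 2 and 3. It was 4.8, 2.85 and 5.85 CPM in SEL201, 3.17, 3.15 and 5.59 CPM in OTX015, and 0.862, 2.17 and 3.44 CPM in COMBO. In CALB1, every treated library lay below every UNTREATED library, while the SEL201, OTX015 and COMBO libraries overlapped one another. The UNTREATED mean was 28.4 ± 13 CPM, against 4.5 ± 1.52 CPM with SEL201, 3.97 ± 1.4 CPM with OTX015 and 2.16 ± 1.29 CPM with both (SD, n = 3). So 15.9% of the UNTREATED mean was left with SEL201, 14% with OTX015 and 7.61% with COMBO. These levels rest on 371 to 845 counts per library in UNTREATED but on 57 to 110 with a single agent and 20 to 52 with COMBO.

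S100B went the other way, in smaller steps. It was 56.4, 59.5 and 46.3 CPM in UNTREATED libraries 1, 2 and 3, and 72.7, 75.5 and 61.6 CPM in SEL201. It was 95.3, 88.1 and 88.9 CPM in OTX015 and 115, 103 and 91.8 CPM in COMBO. UNTREATED, SEL201 and OTX015 did not overlap with one another, and COMBO overlapped with OTX015 alone. The means were 54.1 ± 6.86, 69.9 ± 7.34, 90.8 ± 3.95 and 103 ± 11.8 CPM in that order of groups (SD, n = 3), on 934 to 2680 counts per library. In bulk RNA, a change in the share of cells with a transcript and a change in its amount per cell cannot be told apart, for either gene.

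**Figure D1:**
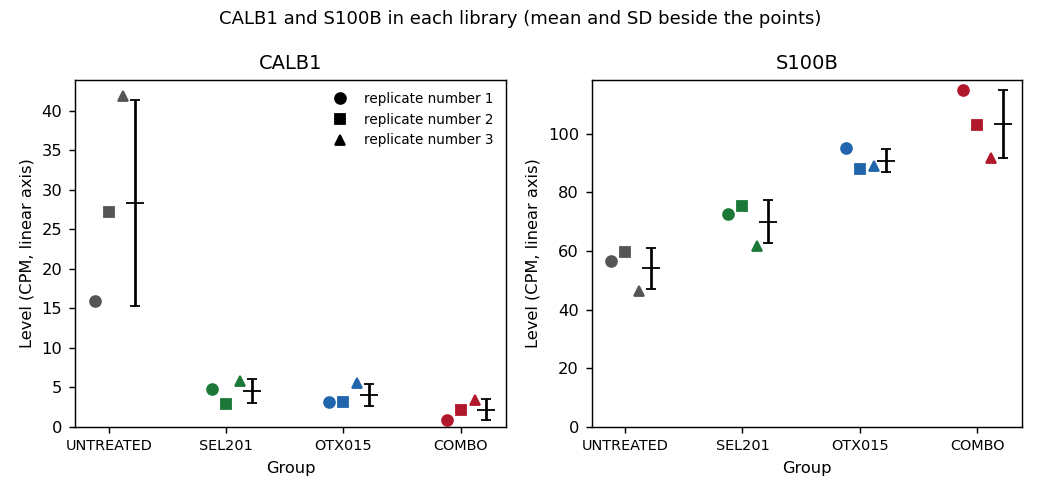
Level of CALB1 (left) and S100B (right) in CPM in each of the 12 libraries, by group on the horizontal axis, with the marker giving the replicate number and the bar beside each group the mean ± SD (n = 3). CALB1 is highest in UNTREATED (15.9 to 41.9 CPM) and below 6 CPM in every treated library, while S100B climbs from 46.3 to 59.5 CPM in UNTREATED to 91.8 to 115 CPM in COMBO.

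On the log2 scale of the edgeR fit, CALB1 differed from UNTREATED by -2.66 with SEL201 (SE 0.40), a 6.32-fold lower level. The difference was -2.84 with OTX015 (SE 0.40, 7.14-fold lower) and -3.78 with COMBO (SE 0.44, 13.8-fold lower). S100B differed by 0.37 with SEL201 (SE 0.11, 1.29-fold higher), 0.75 with OTX015 (SE 0.11, 1.68-fold higher) and 0.94 with COMBO (SE 0.11, 1.91-fold higher). Among all 8579 log2 changes, that of CALB1 was number 2 from the lowest with SEL201, number 15 with OTX015 and number 8 with COMBO, and that of S100B was number 337, 172 and 200 from the highest. Separation of groups was common in the table: 18.8% of genes were lower in every SEL201 library than in every UNTREATED one, 28.9% for OTX015 and 32.1% for COMBO, and 18%, 28% and 30.6% were higher. Between OTX015 and SEL201, where S100B separated too, 18.9% of genes were higher and 20.3% lower without overlap. The 3 comparisons share the UNTREATED libraries.

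On top of the other agent, each agent moved both genes the same way again, by less than it did alone. Against SEL201, COMBO had a log2 difference of -1.12 for CALB1 (SE 0.48) and 0.56 for S100B (SE 0.10). Against OTX015, it was -0.95 for CALB1 (SE 0.48) and 0.19 for S100B (SE 0.10). For CALB1, COMBO overlapped with both single agents. Of all genes, 23.4% were higher and 24.9% lower without overlap between COMBO and SEL201, as S100B was, and 12.2% and 12.8% between COMBO and OTX015. One library weighs on these CALB1 values: without COMBO replicate 1, the lowest library, the difference was -0.70 against SEL201 and -0.53 against OTX015, and without COMBO replicate 3 it was -1.57 and -1.39. Against OTX015 it was -0.62 without OTX015 replicate 3. For S100B the difference from OTX015 was 0.10 without COMBO replicate 1. The COMBO level of CALB1 lay above the sum of both single-agent falls by 1.71 on the log2 scale (SE 0.63). For S100B the departure from that sum was -0.18 (SE 0.15), with -0.09 without UNTREATED replicate 3, -0.10 without COMBO replicate 3, -0.12 without SEL201 replicate 2 and -0.27 without COMBO replicate 1.

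Libraries with the same replicate number tended to move together, and the genes went opposite ways here too. In all 4 groups, library 3 held the most CALB1. S100B was lowest in the number 3 library of UNTREATED, SEL201 and COMBO, and in OTX015 it was lowest in number 2. Within the same number, CALB1 was lower in all 3 comparisons of each treated group with UNTREATED: 3.32-fold, 9.54-fold and 7.16-fold for SEL201, 5.03-fold, 8.65-fold and 7.5-fold for OTX015, and 18.5-fold, 12.5-fold and 12.2-fold for COMBO. S100B was higher in all of them, by 1.27-fold to 1.33-fold with SEL201, 1.48-fold to 1.92-fold with OTX015 and 1.73-fold to 2.05-fold with COMBO. Against the single agents, CALB1 in COMBO was lower in all 3 same-numbered pairs, with log2 ratios of -2.48, -0.39 and -0.77 to SEL201 and of -1.88, -0.53 and -0.70 to OTX015. S100B was higher in all 3 of each, by 0.67, 0.45 and 0.58 over SEL201 and by 0.28, 0.22 and 0.05 over OTX015. With the replicate number as a block, CALB1 in COMBO differed by -1.16 from SEL201 (SE 0.25) and by -0.93 from OTX015 (SE 0.26). Against UNTREATED, the blocked log2 changes of CALB1 were -2.58, -2.81 and -3.74 (SE 0.19, 0.19 and 0.21) and those of S100B 0.37, 0.75 and 0.94 (SE 0.06 each).

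The ratio of the genes within a library does not depend on the scaling between libraries. Per exon length, S100B exceeded CALB1 by 6.46, 3.98 and 2.01 times in UNTREATED libraries 1, 2 and 3. It reached 27.6, 48.2 and 19.2 with SEL201, then 54.9, 51 and 29 with OTX015, and 244, 86.3 and 48.6 with both agents. All 9 treated libraries lay above the 3 UNTREATED ones, which follows from the choice of genes that move in opposite directions. COMBO overlapped with OTX015. CALB1 varied more within groups: its coefficient of variation was 33.8% to 59.7% against 4.35% to 12.7% for S100B.

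**Figure D2:**
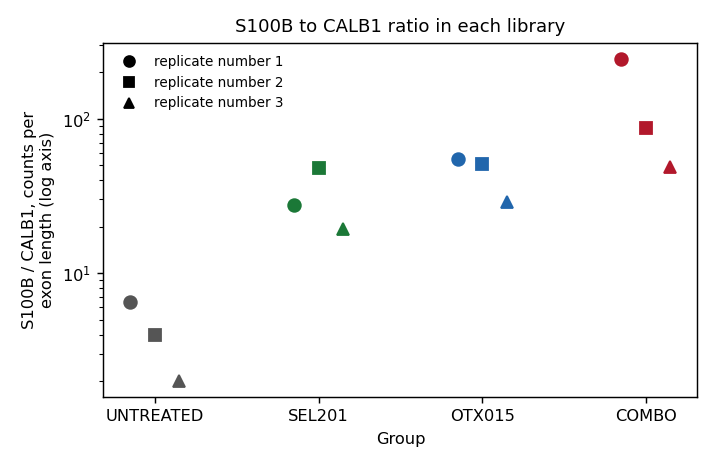
Ratio of S100B to CALB1 in each library, as counts per exon length on a log axis, by group, with the marker giving the replicate number. The ratio is 2.01 to 6.46 in UNTREATED and 48.6 to 244 in COMBO, a separation that follows from the choice of the genes.

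The closest measured relative of CALB1 is CALB2, the gene of calretinin, another EF-hand calcium buffer of neurons. CALB2 was far more abundant: per kilobase of exon, its UNTREATED level was 214 ± 19.4 CPM against 10.7 ± 4.94 for CALB1 and 37.3 ± 4.77 for S100B (SD, n = 3). The UNTREATED libraries held 285, 316 and 342 CPM, the SEL201 libraries 170, 161 and 183, the OTX015 libraries 89.8, 108 and 120, and the COMBO libraries 93, 101 and 93.9. The treated libraries lay below UNTREATED without overlap, as for CALB1, but with a wider step for OTX015 than for SEL201.

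CALB2 fell 1.83-fold with SEL201 (log2 change -0.87, SE 0.09, edgeR adjusted p = 1.8e-05), 2.97-fold with OTX015 (-1.57, SE 0.09, adjusted p = 1.8e-08) and 3.27-fold with COMBO (-1.71, SE 0.09, adjusted p = 2.9e-09). COMBO and OTX015 overlapped (log2 difference -0.14, edgeR adjusted p = 0.42). Its COMBO level lay above the sum of both falls by 0.73 (SE 0.13, edgeR adjusted p = 0.033), a contrast that called 0.28% of all genes (0.21% above the sum, 0.0699% below). That call held with the replicate block (adjusted p = 1.1e-07) and was lost without UNTREATED replicate 2 (0.074) or 3 (0.066), SEL201 replicate 1 (0.092) or 2 (0.099), OTX015 replicate 1 (0.065) or 2 (0.066), or COMBO replicate 1 (0.073), 2 (0.094) or 3 (0.05). The value itself stayed between 0.63 and 0.75 in these fits.

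Of the 19 S100 genes listed, 6 were in the table. Beside S100B, 3 of the other 5 fell with each agent and with COMBO, and with the replicate block 4 fell with SEL201 and with COMBO. Of all genes, 21.2% changed with SEL201 (10.1% higher, 11.1% lower), 48% with OTX015 (23.3% higher, 24.7% lower) and 57.8% with COMBO (28.3% higher, 29.6% lower). The replicate block called 1541 of the 8579 genes higher and 1639 lower with SEL201. With OTX015 it called 2544 and 2568, and with COMBO 2876 and 2934. These are the background for the blocked counts of each list below. S100A2, an S100 gene of epithelial cells, was found at 697, 685 and 844 CPM in the UNTREATED libraries, 354, 301 and 418 in those with SEL201, 172, 153 and 197 in those with OTX015, and 134, 110 and 130 in those with both. It separated all 4 groups in the reverse order of S100B, with a log2 change of -2.57 for COMBO (SE 0.13, edgeR adjusted p = 1.2e-09). S100P was 18.7, 19.9 and 16.1 CPM in UNTREATED, 6.78, 5.01 and 5.79 after SEL201, 2.85, 4.06 and 2.64 after OTX015, and 3.06, 3.65 and 1.85 in COMBO (log2 change -2.64, edgeR adjusted p = 1.5e-07). S100A5 was lower at 4.39 to 5.62 CPM in COMBO against 7.69 to 9.67 in UNTREATED (log2 change -0.80, edgeR adjusted p = 0.0021). Its change with SEL201 (-0.74, adjusted p = 0.012) was not past the threshold without UNTREATED replicate 2 (0.056) or SEL201 replicate 1 (0.057) or 2 (0.056).

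S100A1, whose protein can pair with S100B, was at -0.23 on the log2 scale with COMBO (edgeR adjusted p = 0.083), and S100A13 at -0.13 (adjusted p = 0.098). The median log2 change of these 5 genes was -0.74 with SEL201, -0.74 with OTX015 and -0.80 with COMBO, against a median of 0 over all genes tested in each. Per kilobase of exon, S100B at 71.3 ± 8.01 CPM in COMBO came near S100A2 at 79.6 ± 8.21, from 37.3 ± 4.77 against 474 ± 56.5 in UNTREATED (SD, n = 3). The other S100 genes were not analysed here.

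Among the wider EF-hand superfamily, genes were listed by subfamily, and calpains were listed with or without an EF-hand. Of the 132 listed, 40 were in the table, CALB1 and S100B included. Of the other 38, edgeR called 4 higher and 8 lower with SEL201, 10 and 11 with OTX015, and 9 and 13 with COMBO. That is 31.6%, 55.3% and 57.9% of them, beside 21.2%, 48% and 57.8% of all genes, and their median log2 changes were -0.05, -0.06 and -0.11 against 0. The 4 higher with SEL201 were 2 without UNTREATED replicate 1, SEL201 replicate 1 or SEL201 replicate 3, and the 10 higher with OTX015 were 6 without UNTREATED replicate 1. With COMBO the share called was thus that of the whole table.

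**Figure D3:**
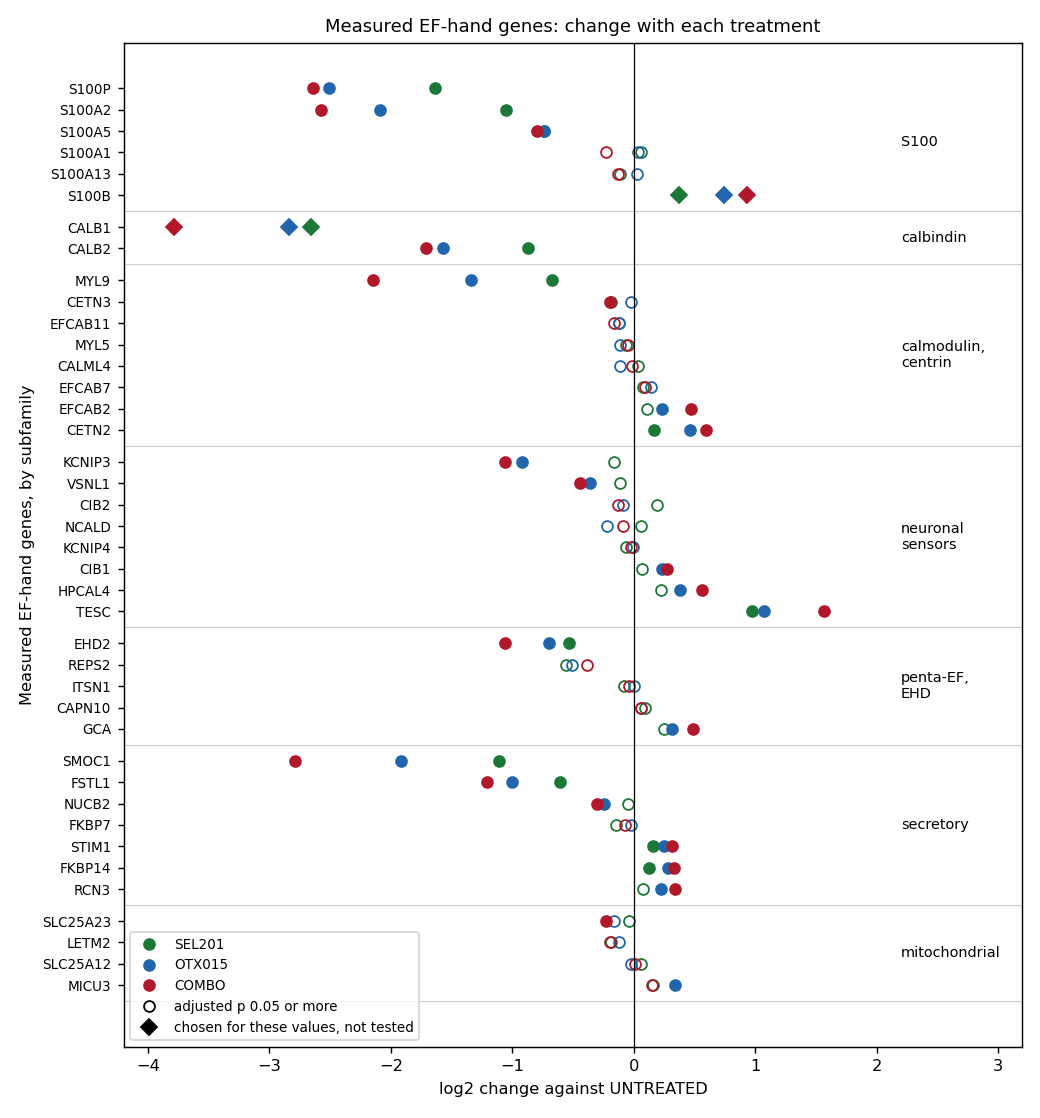
log2 change against UNTREATED of the 40 measured genes of the EF-hand lists, by subfamily, with SEL201, OTX015 and COMBO in different colours. Filled circles had an edgeR adjusted p under 0.05, open circles did not, and diamonds mark CALB1 and S100B, which were not tested. Points lie on both sides of 0 in most subfamilies, with CALB1 at -3.78 and S100B at 0.94 for COMBO.

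The neuronal calcium sensors and their relatives held the largest rise among the other 38 EF-hand genes with each agent and with COMBO. TESC, the gene of tescalcin, which binds a sodium-proton exchanger, stood at 66.4, 58.6 and 47.6 CPM in the UNTREATED libraries, 122, 117 and 101 after SEL201, 145, 113 and 106 after OTX015, and 197, 155 and 158 after both. Its treated libraries lay above UNTREATED throughout, and it was lowest in number 3 in UNTREATED, SEL201 and OTX015 and in number 2 in COMBO. The log2 change was 0.98 with SEL201 (edgeR adjusted p = 0.00022), 1.07 with OTX015 (adjusted p = 2.1e-05) and 1.56 with COMBO (adjusted p = 3e-07). In this subfamily 3 of 8 measured genes rose and 2 fell with COMBO, which is 62.5% beside 57.8% of all genes. CIB1 rose by 0.28 (edgeR adjusted p = 6.1e-05) and HPCAL4 by 0.56 (adjusted p = 0.0042), while KCNIP3, a potassium channel subunit that also acts on transcription, fell by 1.06 (adjusted p = 1.1e-06).

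Of 7 measured EF-hand genes of the secretory pathway, 3 rose and 3 fell with COMBO. That is 85.7% of them, beside 57.8% of all genes (28.3% higher, 29.6% lower). SMOC1, a secreted matricellular protein, fell by 2.79 on the log2 scale (edgeR adjusted p = 5.1e-08), from 14.7 to 2.19 CPM. FSTL1, a secreted follistatin-like protein, fell by 1.21 (adjusted p = 7.5e-06). FKBP14, a folding enzyme of the endoplasmic reticulum, rose by 0.33 (adjusted p = 2.3e-06), and STIM1, the sensor of its calcium store, rose by 0.32 (adjusted p = 3.5e-05).

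Of 8 measured calmodulin-like and centrin genes, 2 rose and 2 fell with COMBO, which is 50% beside 57.8% of all genes. CETN2, a centrosome protein, rose by 0.59 (edgeR adjusted p = 5.4e-08) and EFCAB2 by 0.47 (adjusted p = 0.00026), whereas MYL9, a regulatory light chain of smooth muscle and non-muscle myosin, fell by 2.15 (adjusted p = 1.1e-07) and CETN3 was lower at -0.20 (adjusted p = 0.027). The CETN3 call was lost without UNTREATED replicate 1 (0.1) or 2 (0.071) or COMBO replicate 2 (0.064) or 3 (0.13). The list of penta-EF-hand, calpain and EHD proteins had 5 measured genes. Among them were 1 rise, GCA at 0.49 (edgeR adjusted p = 0.00062), and 1 fall, the membrane-trafficking gene EHD2 at -1.06 (adjusted p = 3.4e-10). That is 40% of them, beside 57.8% of all genes. REPS2 was at -0.39 (adjusted p = 0.22, or 0.048 with the replicate block) and CAPN10 at 0.06 (adjusted p = 0.31). Of 4 mitochondrial EF-hand genes, the carrier SLC25A23 fell by 0.23 (edgeR adjusted p = 0.013, but 0.051 without UNTREATED replicate 1 and 0.062 without 2). It was the 1 gene called there, which is 25% beside 57.8% of all genes. LETM2 was at -0.20 (adjusted p = 0.061, or 0.036 with the block), MICU3 at 0.15 (adjusted p = 0.12) and SLC25A12 at 0.01 (adjusted p = 0.86).

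COMBO against SEL201 called 7 of the 38 EF-hand genes higher and 12 lower, where 40.1% of all genes were called (18.8% higher, 21.2% lower). COMBO against OTX015 called 1 higher, TESC, and 4 lower, where 6.91% of all genes were called (2.9% higher, 4.01% lower). With the replicate block these were 3 and 7, where 861 of all 8579 genes were called higher and 1047 lower. The rise of TESC over OTX015 was 0.49 (edgeR adjusted p = 0.043). That call was lost without COMBO replicate 1 (0.17), 2 (0.055) or 3 (0.063), OTX015 replicate 2 (0.14) or 3 (0.14), SEL201 replicate 1 (0.058) or 2 (0.055), or UNTREATED replicate 2 (0.058), with values of 0.37 to 0.55. In the interaction, CALB2 was the 1 gene of the 38 called (2.63%), where 0.28% of all genes were called. With the block 5 of the 38 lay above and 1 below the sum, where 345 of all 8579 genes lay above and 234 below.

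Downstream of calcium binding, calmodulin-dependent kinases and calcineurin genes changed in 9 of 10 measured members with COMBO, 3 higher and 6 lower (90%, beside 57.8% of all genes; median log2 change -0.34 against 0). NFATC1 and NFATC4, transcription factors that calcineurin activates, fell by 1.37 (edgeR adjusted p = 1e-09) and 2.47 (adjusted p = 1.1e-07). CAMKK1, an upstream kinase of this cascade, fell by 1.19 (adjusted p = 6.9e-08). PPP3CB, a calcineurin catalytic subunit, rose by 0.39 (adjusted p = 2.3e-06). With SEL201 1 rose and 4 fell, or 2 and 4 with the replicate block, and with OTX015 3 rose and 5 fell. These are 50% and 80% of the list, beside 21.2% and 48% of all genes.

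Calcium pumps, exchangers and release channels rose in 6 and fell in 4 of 13 measured members with COMBO, with a median of 0.12. Of all genes, 28.3% were called higher and 29.6% lower. RYR2, a ryanodine receptor that releases stored calcium, fell by 1.71 (edgeR adjusted p = 3.4e-09), while ITPR1, the other main type of release channel, rose by 0.65 (adjusted p = 7.4e-07). TPCN2, a channel of lysosomes and melanosomes, fell by 0.55 (adjusted p = 7.3e-06), and MCUB, a subunit of the mitochondrial uniporter, rose by 0.26 (adjusted p = 1.3e-05). With SEL201 1 rose and 2 fell, or 2 and 3 with the replicate block. With OTX015 4 rose and 4 fell. The shares called were 23.1% and 61.5%, beside 21.2% and 48% of all genes.

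Of 23 proteins known to bind S100B or to be linked to it, 7 genes were measured. With SEL201 edgeR called 0 of the 7, as did DESeq2, with 0 at an unadjusted p under 0.05. With OTX015 2 rose and 2 fell, which is 57.1% beside 48% of all genes. With COMBO 42.9% were called beside 57.8% of all genes: 3 rose, or 3 with 1 fall with the replicate block. Those that rose were GAP43, a growth-cone protein, by 0.46 (edgeR adjusted p = 0.0011), MAPT, the gene of tau, by 0.36 (adjusted p = 0.0044), and STK38, a kinase that S100B activates, by 0.19 (adjusted p = 0.0066). TRPM3, a cation channel, was at -0.33 (adjusted p = 0.064). AGER, the gene of RAGE, the cell-surface receptor of secreted S100B, was low at 11.4 CPM in UNTREATED and 9.47 in COMBO (log2 change -0.28, adjusted p = 0.19). With OTX015 it was lower at -0.60 (edgeR adjusted p = 0.013; 0.051 without OTX015 replicate 1).

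Genes linked to calbindin through vitamin D were thinly covered, with 4 of 14 measured. CYP27B1, which makes the active form of vitamin D, fell by 0.57 with COMBO (edgeR adjusted p = 3.3e-06) and by 0.43 with OTX015 (adjusted p = 6.9e-05). CYP2R1, which acts one step before it, rose by 0.36 with COMBO (adjusted p = 0.0025). RXRG, a partner of the vitamin D receptor, was at 0.39 (adjusted p = 0.069), and IMPA2, an inositol monophosphatase whose close relative calbindin can bind, at 0.01 (adjusted p = 0.83). With SEL201 edgeR called 0 of the 4, against 2 higher and 1 lower at an unadjusted p under 0.05, 1 lower by DESeq2, and 2 higher and 1 lower with the replicate block. With OTX015 and with COMBO 1 rose and 1 fell, or 50% beside 48% and 57.8% of all genes. With the block 2 rose and 1 fell with COMBO. The receptor gene VDR was not analysed here.

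S100B is also a lineage marker, so other melanocyte lineage and neural crest genes were compared with it. Of 28 listed, 18 were measured, and their summed level was 1500 to 1570 CPM in UNTREATED and 1250 to 1320 CPM in COMBO. With COMBO 3 rose and 8 fell, or 5 and 8 with the replicate block. With OTX015 the counts were 1 and 7 (3 and 9 with the block), and with SEL201 1 and 5 (3 and 7). The shares called were 61.1%, 44.4% and 33.3%, beside 57.8%, 48% and 21.2% of all genes. MITF, the main transcription factor of the lineage, fell by 0.17 with COMBO (edgeR adjusted p = 0.03), from 173 to 154 CPM, a call lost without UNTREATED replicate 2 (0.15) or COMBO replicate 1 (0.058) or 3 (0.089). GPNMB, a melanosome protein, fell by 1.06 (adjusted p = 1.3e-08), MLPH, which ties melanosomes to actin motors, by 2.02 (adjusted p = 5.2e-08), RAB27A, its partner, by 0.54 (adjusted p = 6.1e-05) and the survival gene BCL2A1 by 1.02 (adjusted p = 0.00019). The pigment antigens MLANA and PMEL were near the low end of the table at 4.19 and 4.87 CPM in UNTREATED. MLANA rose by 0.65 (edgeR adjusted p = 0.0069), PMEL was at 0.19 (adjusted p = 0.45), and SOX10 was not analysed here.

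Markers of other cell types moved as well, and their part in the results was not tested. Of 10 epithelial markers 5 were measured and none was at 0: their summed level was 689 to 739 CPM in UNTREATED, 412 to 428 CPM after SEL201, 321 to 343 CPM after OTX015 and 240 to 257 CPM after both, in the order of the CALB1 means. With COMBO 4 of them fell and none rose, which is 80% called beside 57.8% of all genes (28.3% higher, 29.6% lower). With SEL201 4 fell and with OTX015 5, which are 80% and 100% beside 21.2% and 48% of all genes. The log2 change with COMBO was -2.10 for KRT14 (edgeR adjusted p = 2.3e-10) and -1.56 for CLDN4 (adjusted p = 1.4e-10). It was -1.02 for KRT8 (edgeR adjusted p = 1.4e-09) and -5.13 for KRT7 (adjusted p = 3.1e-08). KRT7 averaged 31.8 CPM in UNTREATED but 0.896 CPM in COMBO, a low level that limits its value. Of 9 fibroblast markers 5 were measured. They summed to 138 to 184 CPM in UNTREATED, 118 to 136 CPM after SEL201, 98.9 to 105 CPM after OTX015 and 86.4 to 93.3 CPM after both. With COMBO 4 fell and 1 rose, which is 100% called beside 57.8% of all genes. LUM fell by 2.55 with COMBO (edgeR adjusted p = 4.3e-09), DCN by 2.41 (adjusted p = 2.9e-07), PDGFRB by 0.71 (adjusted p = 1.4e-05) and COL1A1 by 0.76 (adjusted p = 0.0025).

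Schwann and glial markers, which share S100B, were measured in 3 of 7, at 182 to 240 CPM in UNTREATED, 170 to 217 CPM after SEL201, 193 to 222 CPM after OTX015 and 174 to 207 CPM after both. With COMBO, SOX2 rose by 0.65 (edgeR adjusted p = 0.0019) and FABP7 was at 0.05 (adjusted p = 0.80). KDR, the 1 of 4 endothelial markers measured, was at 81 to 142 CPM in UNTREATED and 101 to 157 in COMBO (log2 change 0.28, adjusted p = 0.34). None of the 7 immune markers was among the genes analysed.

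The genes most like CALB1 over the 12 libraries were found by the root mean square difference of log2 CPM, each gene centred on its UNTREATED mean. The nearest was SERPINB7, a serine protease inhibitor gene of epithelia, at 0.45 log2 units, followed by TM4SF18 (0.55), the keratin gene KRT80 (0.56), the myosin gene MYO7B (0.57), SERPINB5 (0.59), the semaphorin gene SEMA5A (0.63), the inflammasome gene NLRP3 (0.65) and TMEM156 (0.67). These fell with each agent, which follows from their choice by likeness to CALB1. SERPINB7 went from 31.6 CPM in UNTREATED to 7.74 in SEL201 and 4.14 in OTX015, and KRT80 from 898 to 272 and 114. In CALB1 the SEL201 and OTX015 means were almost level, at 4.5 and 3.97 CPM.

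The genes nearest S100B were GCNT1, a glycan-branching enzyme, at 0.10 log2 units, and TRIM9, ACSS2, SARNP and REEP1 at 0.11. CXorf57, GLCCI1 and FGFR4 followed at 0.12. This distance is not scaled to the size of a gene's changes. Those of S100B are smaller than those of CALB1, so its distances cannot be set against the ones for CALB1. ACSS2, which makes acetyl-CoA from acetate, averaged 124 CPM in UNTREATED, 155 CPM after SEL201, 215 CPM after OTX015 and 227 CPM after both. FGFR4, a fibroblast growth factor receptor, was 133, 169, 245 and 251 CPM in the same order. Without the 4 libraries numbered 3, 7 of the 8 genes nearest CALB1 were the same, but 2 of the 8 nearest S100B.

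The genes nearest to the mirror image of CALB1 lay further off than the 8 nearest to CALB1 itself. The nearest were TEX14 (1.11 log2 units), SYT12, a synaptotagmin gene (1.12), and NXN, a redox gene (1.13). NXN averaged 12.9 CPM in UNTREATED, 29.4 CPM after SEL201, 51.8 CPM after OTX015 and 77.5 CPM after both.

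**Figure D4:**
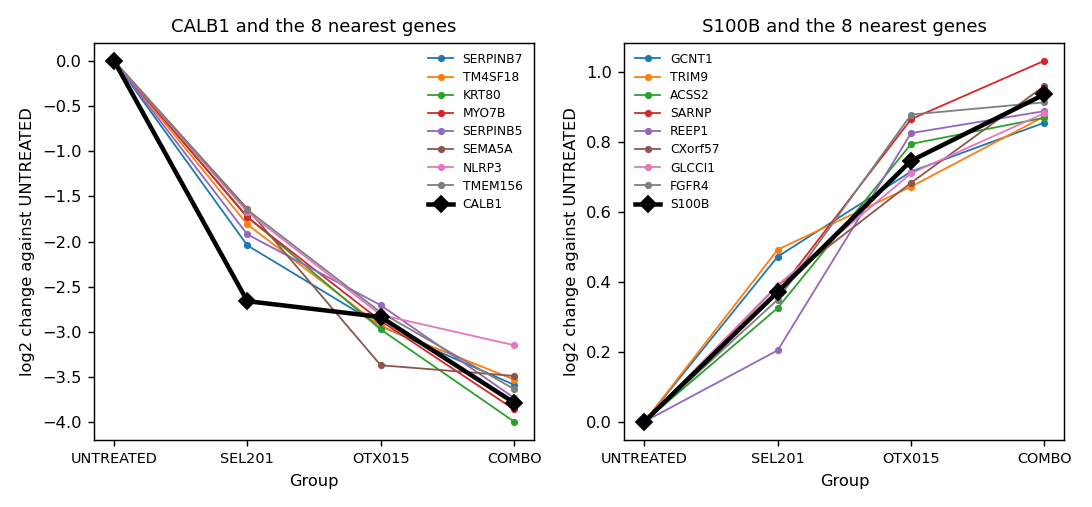
log2 change against UNTREATED in each group for CALB1 (left, black) and S100B (right, black), each with the 8 genes nearest to it over the 12 libraries (coloured lines). CALB1 drops further with SEL201 (-2.66) than its neighbours and meets them with OTX015 (-2.84), while S100B at 0.37, 0.75 and 0.94 runs within its neighbours.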

How the data were processed

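RNA of 12 A375 libraries was sequenced from stranded poly(A) preparations, per the labels. The values are raw counts, 1 per gene and library, as the authors deposited them. STAR 2.5.4b, SAMtools 1.9, featureCounts and the build hg19 are named, without roles, per the submitters' processing notes. Annotation and strand setting: not given in the sources used here. There were 8579 genes with mean counts of 78.67 to 9159 and totals of 15146071 to 24111541 per library. CPM is relative to these genes, and does not show a change common to most of the table.

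edgeR 4.0.16 in R 4.3.3 was run with TMM scaling, filterByExpr, glmQLFit and glmQLFTest over 4 group means, with Benjamini-Hochberg adjustment over 8579 genes and a threshold of 0.05. The SE was taken from the log2 change and its F statistic. The steps were tested on simulated data. Alternatives were RLE factors, DESeq2 1.42.0, no filter, a filter of 5 CPM in 3 libraries, the replicate block, a fit restricted to the groups compared, and libraries left out. Same-numbered libraries deviated from their group means together (r = 0.26 to 0.57 across genes in 18 pairs, -0.46 to 0.19 in 36 others), so the numbers appear to pair them, from the data and not the labels. Replicates differed beyond sampling noise (chi-square per degree of freedom 6.34 or more).

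The members and gene lists were chosen with earlier results of these data known. Named genes are CALB1 and S100B, up to 4 members with the lowest p for COMBO in each list, a fixed set of relatives and partners, the 8 genes nearest to each member and the 4 nearest the mirror image of CALB1 (clone-based and antisense names skipped; log2 CPM with a prior count of 2). Some genes and 1 list that this rule covers are not reported here. Exon lengths are from GENCODE v29, on another build and used for length only; in it no gene overlaps CALB1, CALB2 or S100B.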

Additional observations from a re-analysis of the deposited data

Results flagged for a closer look

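In the edgeR fit without the replicate block, the change with SEL201 differed by whether OTX015 was present for 2 of the listed genes. With the block, more listed genes were called in both directions. Among them were S100A2 (0.57, edgeR adjusted p = 1.9e-07) and TESC (-0.49, adjusted p = 0.00012). Of all 8579 genes, the block called 345 above and 234 below the sum of both changes. For CALB2 the COMBO level lay 0.73 above what adding the SEL201 and OTX015 changes gives, in log2 units (SE 0.13, adjusted p = 0.033), a call lost without any 1 of 9 libraries (adjusted p of 0.05 to 0.099). For the epithelial marker KRT8 it lay 0.49 above (SE 0.07, adjusted p = 0.011; 0.05 without UNTREATED replicate 2).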

How the results depend on the processing

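The directions of CALB1 and S100B in all 6 contrasts held with RLE factors, DESeq2, no filter, the stricter filter, the replicate block, a fit restricted to the groups compared (not run for the interaction), each library left out and without the 4 libraries numbered 3. Leaving out 1 library moved the CALB1 change from -2.95 to -2.27 with SEL201, -3.16 to -2.44 with OTX015 and -4.23 to -3.36 with COMBO. S100B ran from 0.28 to 0.45, 0.65 to 0.82 and 0.84 to 1.01. In COMBO against OTX015, EF-hand genes called were 3 higher and 7 lower with the replicate block, 2 lower in the fit of only these groups and 2 higher without the libraries numbered 3. Leaving out 1 library gave 0 to 1 higher and 1 to 4 lower. In the interaction they were 5 higher and 1 lower with the block, 2 higher with DESeq2, 3 higher without the libraries numbered 3 and 0 to 1 higher with 1 library left out. Over all genes, COMBO against OTX015 called 249 higher and 344 lower without the block, and 861 and 1047 with it. The interaction called 18 and 6 without the block, 345 and 234 with it, and 87 and 32 with DESeq2. Without the libraries numbered 3 the interaction called 57 and 15. With 1 library left out, SEL201 gave 2 to 5 EF-hand genes higher and OTX015 6 to 10. The cause of these shifts was not tested. The block moved no other count over the 38 EF-hand genes by over 1.5 times. With COMBO, though, it took the falls from 1 to 2 in the penta-EF-hand, calpain and EHD list and among mitochondrial genes. Counts of 20 to 52 limit CALB1 in COMBO.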
